A study of Mus musculus with 12 samples.

Results

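The 9 genes described here encode the lipid regulators of the SREBP, ChREBP and LXR systems in liver: Srebf1, Srebf2, Scap, Insig1, Insig2, Mlxipl, Mlx, Nr1h2 and Nr1h3. They are the rows with these gene names, a set proposed with earlier results of these data known, and are 9 of the 54532 genes counted in each library. All 9 were found once in every count table and all 9 passed the filter on low counts in every comparison. Members were counted at 520 to 24223 reads per library.

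Sterol regulatory element-binding proteins (SREBPs) are transcription factors made as inactive precursors in the endoplasmic reticulum membrane. SCAP, the product of Scap, escorts the precursors to the Golgi, where proteases release the active factor, and the INSIG proteins hold the SCAP-SREBP complex back when sterols are plentiful. SREBP-1, from Srebf1, mainly drives fatty acid synthesis, and SREBP-2, from Srebf2, mainly drives cholesterol synthesis and uptake. ChREBP, from Mlxipl, answers to carbohydrate and binds DNA together with its partner MLX. LXRα, from Nr1h3, and LXRβ, from Nr1h2, are nuclear receptors for oxysterols that pair with RXR, induce sterol exporters and also induce Srebf1. RNA counts record none of the cleavage, nuclear entry or ligand binding through which these proteins act.

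Whole liver RNA came from male mice that were homozygous for floxed PPARγ alleles (PPARγ flox/flox) and were 8 weeks old when AAV8 was injected. In the PPARγ-KO group the virus carried Cre recombinase, and in the littermates called wild-type (WT) it carried eGFP, in both cases under the hepatocyte-specific TBG promoter. The WT mice thus carried the floxed alleles and the virus too. Livers were taken after 2 or 5 months on a fast-food diet (FFD) high in sucrose, cholesterol and fat, given with sugar water of fructose and glucose to every group. At each time 3 libraries came from each genotype, which makes 12, and no chow-fed libraries were analysed here. The 2- and 5-month mice also differed in age by the added months on diet, and neither the hour of tissue collection nor whether libraries of both times were made together is stated in the sources used here. Age, diet time and any such batch cannot be told apart.

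Library totals ran from 16367775 to 27452284 counts. Replicates of a group differed by more than counting noise, with a chi-square per gene of 2.44 to 31.7, and the library farthest from the rest of its group was WT replicate 1 at 2 months. The targeted gene did not check the labels. At 2 months Pparg stood at 39.3 ± 1.92 normalized CPM (counts scaled to a common library total, mean ± SD, n = 3) in WT and at 56.3 ± 8.84 where PPARγ-KO was the label, and at 5 months it stood at 38.4 ± 2.54 and 84.8 ± 9.05. It was thus higher under the PPARγ-KO label at 2 months (log2 fold change 0.52, SE 0.107, edgeR adjusted p = 0.0309), a call lost in 6 of 13 alternatives, and at 5 months (1.15, SE 0.0847, adjusted p = 2.57e-06). The gene count sums all exons, including those outside the floxed part, so it does not measure the loss of intact PPARγ. Directions below are those of the libraries labelled PPARγ-KO against WT. In bulk liver, fewer cells of a type and less RNA per cell cannot be told apart.

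The 9 genes lie on 7 chromosomes, and the positions in the deposited tables (mm10) equal those of GENCODE M21. Srebf1 lies at chr11:60199089-60222581 on the minus strand, Srebf2 at chr15:82147181-82205379 on the plus strand and Scap at chr9:110333288-110384950 on the plus strand. Insig1 spans chr5:28071363-28078662 on the plus strand, while Insig2 spans chr1:121304353-121332589 on the minus strand. Mlxipl covers chr5:135089890-135138382 and Mlx chr11:101087277-101092207, both on the plus strand. Nr1h2 covers chr7:44549616-44553951 and Nr1h3 chr2:91184061-91202834, both on the minus strand. Whether counting used the strand is not stated in the sources used here, so genes that overlap a member could exchange reads with it. Rai1, which overlaps Srebf1 on the other strand, had 180 to 478 counts against 7501 to 24223 for Srebf1. Gm43500, the antisense gene of Mlxipl, had 2 to 66 counts against 2063 to 12333. Gene counts do not separate SREBP-1a from SREBP-1c or ChREBPα from ChREBPβ.

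The promoters printed here are those of the INSIG paralogs, whose transcripts behaved differently across the groups, and those of Mlxipl, which passed the test in all 4 pairwise comparisons. Each runs 5′ to 3′ on the strand of its gene and holds no annotated exon base (RefSeq starts, GRCm38.p6, the assembly of mm10). The Insig1 piece stops 49 exon bases short of its RefSeq start, and the second Mlxipl start lies inside the gene. Capitals mark matches to 4 motifs on either strand: the sterol regulatory element core TCACNCCAC, the E box CACGTG, the nuclear receptor hexamer AGGTCA and the CCAAT box, which reads ATTGG on the other strand. In Insig1 the hexamer and the E box overlap and appear as 1 run of capitals.
Insig1, chr5:28071162-28071362, plus strand: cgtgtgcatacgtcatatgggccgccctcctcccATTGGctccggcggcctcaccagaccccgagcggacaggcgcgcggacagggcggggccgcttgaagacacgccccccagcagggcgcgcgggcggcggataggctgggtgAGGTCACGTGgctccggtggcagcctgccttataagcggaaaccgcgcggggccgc
Insig2, first start, chr1:121332590-121332839, minus strand: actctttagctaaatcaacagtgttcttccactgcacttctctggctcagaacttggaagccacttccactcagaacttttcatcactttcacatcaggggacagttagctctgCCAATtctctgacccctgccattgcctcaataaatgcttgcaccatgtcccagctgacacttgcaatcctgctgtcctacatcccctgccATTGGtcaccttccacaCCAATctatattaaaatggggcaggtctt
Mlxipl, first start, chr5:135089640-135089889, plus strand: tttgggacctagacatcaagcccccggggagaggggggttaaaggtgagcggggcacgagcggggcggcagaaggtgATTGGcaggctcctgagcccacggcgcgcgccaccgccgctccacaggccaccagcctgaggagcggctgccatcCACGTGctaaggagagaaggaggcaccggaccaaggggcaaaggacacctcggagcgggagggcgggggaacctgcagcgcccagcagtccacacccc
Mlxipl, second start, chr5:135106641-135106890, plus strand: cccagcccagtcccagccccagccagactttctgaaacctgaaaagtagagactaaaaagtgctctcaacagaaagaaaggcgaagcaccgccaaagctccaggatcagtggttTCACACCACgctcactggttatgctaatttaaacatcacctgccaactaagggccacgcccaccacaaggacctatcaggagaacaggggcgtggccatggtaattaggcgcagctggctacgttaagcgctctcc

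RefSeq listed 16 start sites for the 9 genes. Within the 250 bases before them, the sterol regulatory element core matched in 1 window, that of the second Mlxipl start, as TCACACCAC at 128 to 136 bases upstream, and in 1.05% of all 32851 windows of 27025 mouse genes. The E box matched in 4 of the 16 windows, those of Scap, Insig1, Mlxipl and Mlx, and in 6.02% of all windows. Insig1 held its E box at 96 to 101 bases upstream and the first Mlxipl start at 93 to 98. The hexamer matched in the Insig1 window alone, against 14% of all windows. The CCAAT box matched in 7 of the 16 windows, which belong to 6 members, and in 33.8% of all windows. An AGGTCA repeated after 4 bases, the form LXR and RXR are known to bind, occurred in 0.0152% of all windows and in no member window. An exact CACGTG repeated after 5 bases, a strict form of the carbohydrate response element, occurred in none of the windows scanned. That search therefore could not set members apart from other genes, and looser forms were not searched. These are matches of letters in short windows and say nothing of which factor binds.

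Of the SREBP genes, Srebf1 had the higher level per length in all 12 libraries. Srebf1 stood at 1320, 1020 and 979 CPM in WT and 1250, 1230 and 896 in PPARγ-KO at 2 months. At 5 months it stood at 754, 737 and 722 in WT and 620, 687 and 473 in PPARγ-KO. Every 5-month library lay below every 2-month library, and genotypes overlapped at 2 months only. Srebf2 stood at 51.9, 55.6 and 56.8 CPM in WT and 63.5, 57.2 and 63 in PPARγ-KO at 2 months, then at 50, 54.7 and 48.2 in WT and 56.7, 65.8 and 70.5 in PPARγ-KO. Its PPARγ-KO libraries lay above the WT libraries at each time.

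Scap, the sterol-sensing escort, stood at 99.3, 89.6 and 87 CPM in WT and 130, 104 and 138 in PPARγ-KO at 2 months, and at 75.9, 68 and 66 and at 78.8, 88.7 and 88.2 at 5 months. The genotypes were apart at both times, with PPARγ-KO above. Insig1, itself a classical SREBP target, stood at 298, 276 and 357 CPM in WT and 454, 351 and 504 in PPARγ-KO at 2 months. At 5 months it stood at 186, 189 and 193 in WT and 401, 471 and 406 in PPARγ-KO. The WT libraries fell to a narrow low range at 5 months, whereas the PPARγ-KO libraries stayed within their 2-month range. Insig2, whose liver transcript is known to be lowered by insulin, stood at 328, 313 and 293 CPM in WT and 337, 354 and 267 in PPARγ-KO at 2 months. At 5 months it stood at 690, 608 and 591 in WT and 566, 591 and 607 in PPARγ-KO, so that time, and not genotype, separated its libraries.

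Mlxipl stood at 365, 297 and 335 CPM in WT and 481, 437 and 459 in PPARγ-KO at 2 months, and at 122, 157 and 156 and at 212, 170 and 210 at 5 months. No 2 of its 4 groups overlapped. Mlx, the partner of ChREBP, ranged only from 28.4 to 35.1 CPM over the 12 libraries. Nr1h3 stood at 92.3, 90.9 and 82.6 CPM in WT and 111, 110 and 98.2 in PPARγ-KO at 2 months, and at 123, 116 and 115 and at 114, 114 and 112 at 5 months. Its PPARγ-KO libraries were all above WT at 2 months and all below at 5 months. Nr1h2 ranged from 38.8 to 49.8 CPM.

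**Figure D1:**
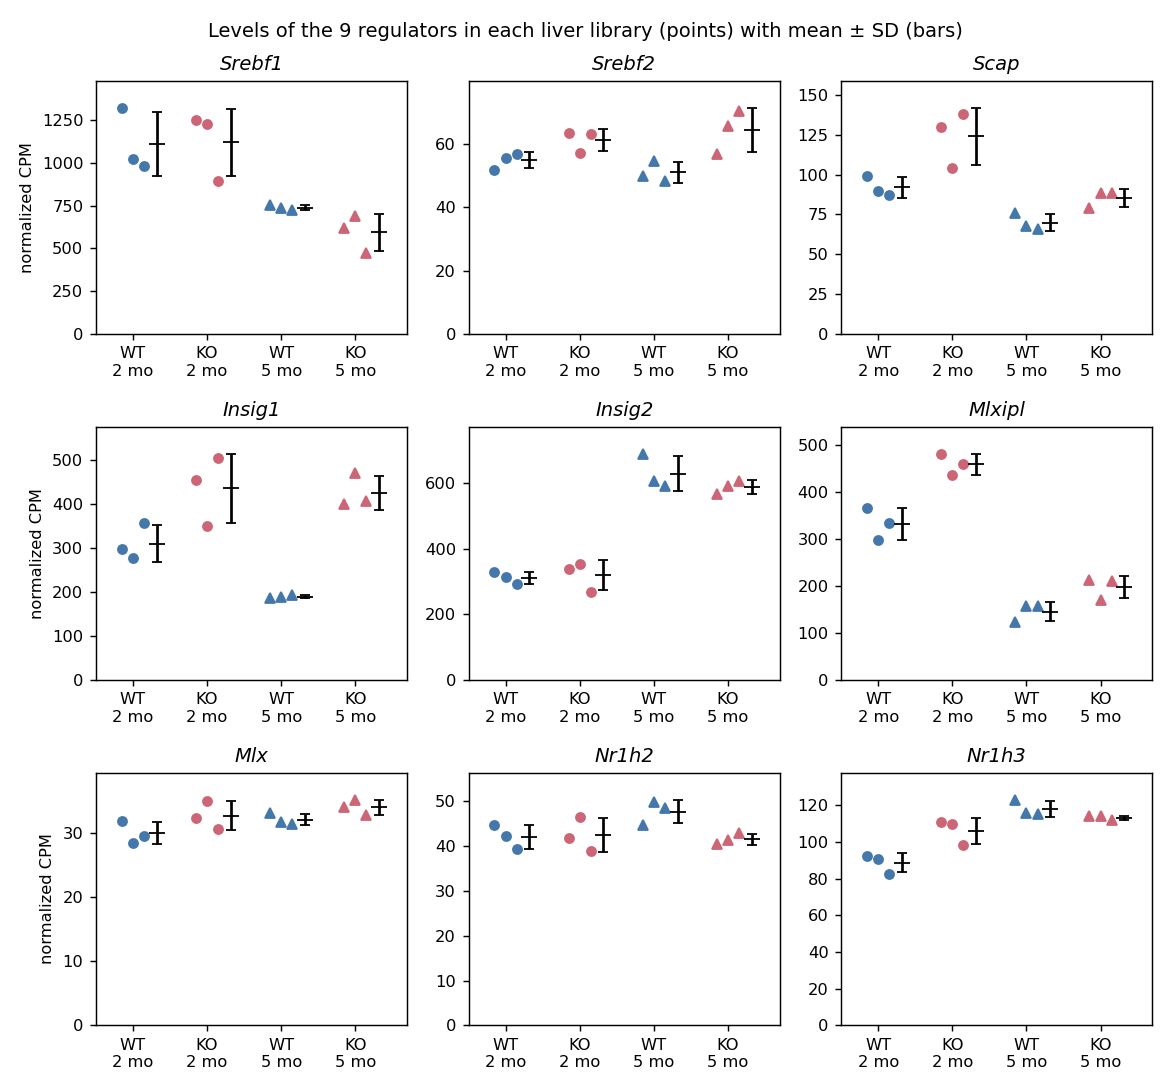
Normalized CPM of each of the 9 regulators in the 12 liver libraries, by genotype and months on FFD (blue WT, red PPARγ-KO, circles 2 months, triangles 5 months), with the mean ± SD of 3 libraries as a bar beside the points and every axis starting at 0. Insig1 is low in the 3 WT libraries at 5 months (186 to 193 CPM), Insig2 is high in all 6 libraries at 5 months (566 to 690) and Mlxipl is low in them (122 to 212).

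Levels of different genes were compared per kilobase of exon. In WT at 2 months the order of mean CPM per kilobase was Srebf1 at 196, Insig1 at 100, Insig2 at 89.7, Mlxipl at 60, Nr1h3 at 35.2, Mlx at 14.9, Nr1h2 at 12.6, Scap at 12.4 and Srebf2 at 7.62. The libraries of neighbours overlapped for Insig1 and Insig2 and for Nr1h2 and Scap. Srebf1 led the PPARγ-KO libraries at 2 months too, at 199 ± 35, where it overlapped Insig1 at 141 ± 25.3. At 5 months Insig2 led, at 181 ± 15.2 in WT and 169 ± 5.99 in PPARγ-KO, and no neighbours in the order overlapped in either group. Insig1 and Srebf1 held different places at 5 months. In WT Srebf1, at 131 ± 2.89, was above Insig1, at 61.1 ± 1.13, and in PPARγ-KO Insig1, at 138 ± 12.6, was above Srebf1, at 105 ± 19.4. Srebf2 was last in all 4 groups.

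To ask how the loss of hepatocyte PPARγ bears on these regulators early on FFD, PPARγ-KO was compared with WT at 2 months. All 9 genes had a positive log2 fold change, although those of Srebf1, Insig2 and Nr1h2 turned negative when only library size was scaled. Mlxipl, the gene of ChREBP, was the only member to pass the test, at 459 ± 22.3 against 332 ± 34.1 CPM (n = 3 each). Its log2 fold change was 0.46 (SE 0.0928, 1.38-fold, edgeR adjusted p = 0.0267). Thus 1 of 9 members was called at an adjusted p below 0.05, against 3.56% of the 14573 genes tested (1.78% higher and 1.78% lower). The groups did not overlap for 4 members, Srebf2, Scap, Mlxipl and Nr1h3, and for 24.1% of all genes tested. The regulators of SREBP transport did not pass. Scap had a log2 fold change of 0.43 (SE 0.106, adjusted p = 0.0579) and Insig1 of 0.49 (SE 0.144, adjusted p = 0.106). Srebf1, at 0.02 (95% interval -0.34 to 0.38), and Insig2, at 0.04 (-0.21 to 0.28), had values near 0 with wide intervals. Nr1h3 had a log2 fold change of 0.26 (SE 0.0777, adjusted p = 0.1), Srebf2 of 0.16 (SE 0.0734), Mlx of 0.12 (SE 0.0872) and Nr1h2 of 0.01 (SE 0.0886).

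The labels give repeat numbers and name no pairing. At 2 months the deviations of same-numbered libraries correlated at 0.221, 0.325 and 0.139, and those of other pairs at up to 0.115. With the replicate number as a block 3 members were called rather than 1: Mlxipl, Scap at 0.43 (adjusted p = 0.0286) and Insig1 at 0.48 (adjusted p = 0.0171). The call of Mlxipl was lost when WT replicate 2 or 3 or PPARγ-KO replicate 1, 2 or 3 was left out (adjusted p = 0.0615 to 0.124). With WT replicate 1 left out, 3 members were called, Scap, Mlxipl and Nr1h3.

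At 5 months 4 of the 9 members were higher in PPARγ-KO, namely Insig1, Srebf2, Scap and Mlxipl, and the other 5 did not pass the test. Insig1 had the largest difference, at 426 ± 39 against 189 ± 3.49 CPM (2.27-fold, log2 fold change 1.18, SE 0.0752, edgeR adjusted p = 1.08e-06). Mlxipl followed at 0.45 (SE 0.115, adjusted p = 0.024), Srebf2 at 0.34 (SE 0.0853, adjusted p = 0.0132) and Scap at 0.30 (SE 0.0735, adjusted p = 0.0135). Of the 14138 genes tested, 18.4% were called, 8.9% higher and 9.51% lower. The groups were apart for 7 members, all but Insig2 and Mlx, and for 34.9% of all genes.

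Srebf1 had a log2 fold change of -0.30 at 5 months (SE 0.115, adjusted p = 0.0957), with all 3 PPARγ-KO libraries below WT. It passed in 5 of 13 alternatives, namely DESeq2, library size alone, no filter, the replicate block and without PPARγ-KO replicate 2, with adjusted p from 0.000966 to 0.0464. Nr1h2 had -0.19 (SE 0.0687, adjusted p = 0.0747), also with PPARγ-KO below WT in every library. It passed in 2 of 13 alternatives, library size alone and without WT replicate 1, with a lowest adjusted p of 0.0229. Nr1h3 was apart by a small margin, at -0.05 (95% interval -0.17 to 0.08, adjusted p = 0.641). For Insig2 the interval was -0.25 to 0.07 around -0.09, and for Mlx -0.05 to 0.24 around 0.10. The call of Insig1 held in every alternative analysis. The calls of Srebf2, Scap and Mlxipl were all lost without PPARγ-KO replicate 3 (adjusted p = 0.0648, 0.0576 and 0.084), and those of Srebf2 and Scap also without WT replicate 3 (adjusted p = 0.0678 and 0.0765). Scap further lost its call without WT replicate 2 or PPARγ-KO replicate 2 (adjusted p = 0.066 and 0.0504) and with all 12 libraries in one fit (0.0638). Mlxipl lost its call without PPARγ-KO replicate 1 (adjusted p = 0.0627) and with library size alone (0.105).

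**Figure D2:**
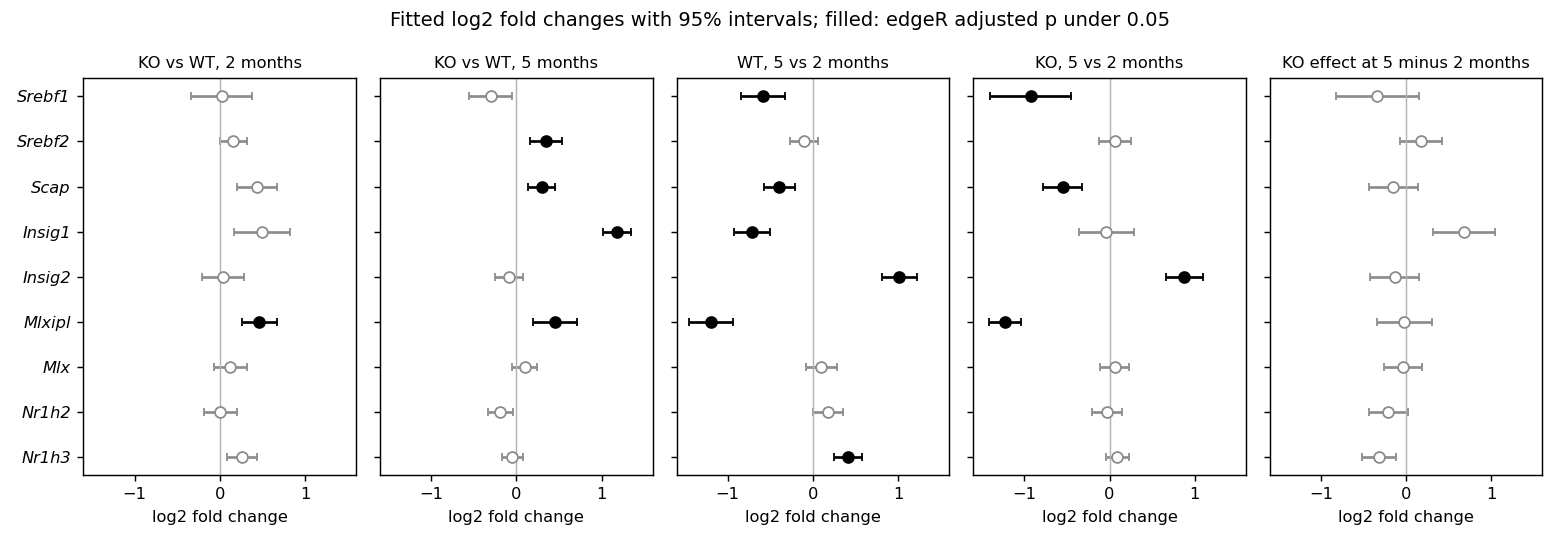
Fitted log2 fold change of each regulator with its 95% interval in the 4 pairwise comparisons and for the difference of the PPARγ-KO effect between 5 and 2 months, from edgeR. Filled points passed an adjusted p of 0.05, which were 1, 4, 6, 4 and 0 of the 9 genes in the panels from left to right.

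Whether the PPARγ-KO effect differed between 5 and 2 months was tested in a fit of all 12 libraries. None of the 9 members passed in edgeR, against 1.57% of the 15127 genes tested (0.661% higher and 0.912% lower), while DESeq2 called 2, Insig1 and Nr1h3. Those 2 also had an unadjusted p below 0.05 in edgeR. The PPARγ-KO effect on Insig1 was larger at 5 months by 0.68 (SE 0.172, adjusted p = 0.0686), and for Nr1h3 the difference was -0.32 (SE 0.0945, adjusted p = 0.107). For Mlxipl the difference was -0.02, with a 95% interval from -0.35 to 0.31. Without PPARγ-KO replicate 3 at 2 months, edgeR called Insig1 (adjusted p = 0.0289).

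Change over time on FFD was compared within each genotype. In WT livers 6 of the 9 members were called between 2 and 5 months. Insig2 rose 2.02-fold (log2 fold change 1.01, SE 0.0925, adjusted p = 1.53e-05) and Nr1h3 1.33-fold (0.41, SE 0.0744, adjusted p = 0.00116). Mlxipl fell by 1.20 on the log2 scale (SE 0.117, adjusted p = 2.8e-05), Insig1 by 0.72 (SE 0.0981, adjusted p = 0.000202), Srebf1 by 0.59 (SE 0.119, adjusted p = 0.00234) and Scap by 0.40 (SE 0.0825, adjusted p = 0.00263). Over all genes tested 46.4% were called, 23.8% higher and 22.7% lower, and the groups were apart for 6 members and for 56.8% of genes. A change over time was therefore common in these livers. Srebf2, Mlx and Nr1h2 had values of -0.10, 0.10 and 0.18 (adjusted p = 0.283, 0.352 and 0.0855).

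In PPARγ-KO livers 4 members were called over the same months, against 44.9% of genes tested (22.7% higher and 22.2% lower). Insig2 rose by 0.88 on the log2 scale (SE 0.0983, adjusted p = 9.16e-05). Mlxipl fell by 1.22 (SE 0.085, adjusted p = 2.38e-06), Srebf1 by 0.92 (SE 0.191, adjusted p = 0.0114) and Scap by 0.55 (SE 0.102, adjusted p = 0.00217). Insig1, called lower in WT, had a value of -0.04 here with a 95% interval from -0.36 to 0.28, and Nr1h3 had 0.09 (-0.05 to 0.23). The difference between genotypes in the change over time is the same contrast as the difference in PPARγ-KO effect given above, in which neither gene passed in edgeR. The groups were apart for 5 members and for 55.6% of all genes. The comparisons over time and those of genotype share their libraries, so they are not independent.

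The study called genes by p below 0.05 and added a 1.3-fold change for its pathway analysis. Both criteria together, with the edgeR p taken here as unadjusted, gave 3 members at 2 months and 2 at 5 months, against 11% and 17% of genes tested. By unadjusted p alone Nr1h3 would be added at 2 months, and Srebf1, Srebf2, Scap and Nr1h2 at 5 months. Over time both criteria together gave 6 members in WT and 4 in PPARγ-KO, against 41.1% and 36% of genes. For the difference between times they gave 1, Insig1, against 10.3%.

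Ratios within a library do not depend on its scaling, and are given per length as a description without a test, since 3 libraries against 3 cannot reach an exact permutation p below 0.10. Insig1 to Insig2 stood at 1.13 ± 0.208 in WT and 1.58 ± 0.509 in PPARγ-KO at 2 months, with overlapping libraries. At 5 months it stood at 0.339 ± 0.0328 in WT and 0.813 ± 0.074 in PPARγ-KO, with no overlap. Insig1 was thus the minor INSIG transcript in every library at 5 months. Srebf1 to Srebf2 went from 25.9 ± 5.69 to 18.5 ± 1.15 in WT and from 23.5 ± 4.79 to 11.9 ± 2.94 in PPARγ-KO. Mlxipl to Mlx went from 4.01 ± 0.199 to 1.64 ± 0.261 in WT and from 5.11 ± 0.516 to 2.1 ± 0.308 in PPARγ-KO. Nr1h3 to Nr1h2 stayed between 2.75 and 3.75 in all 12 libraries.

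**Figure D3:**
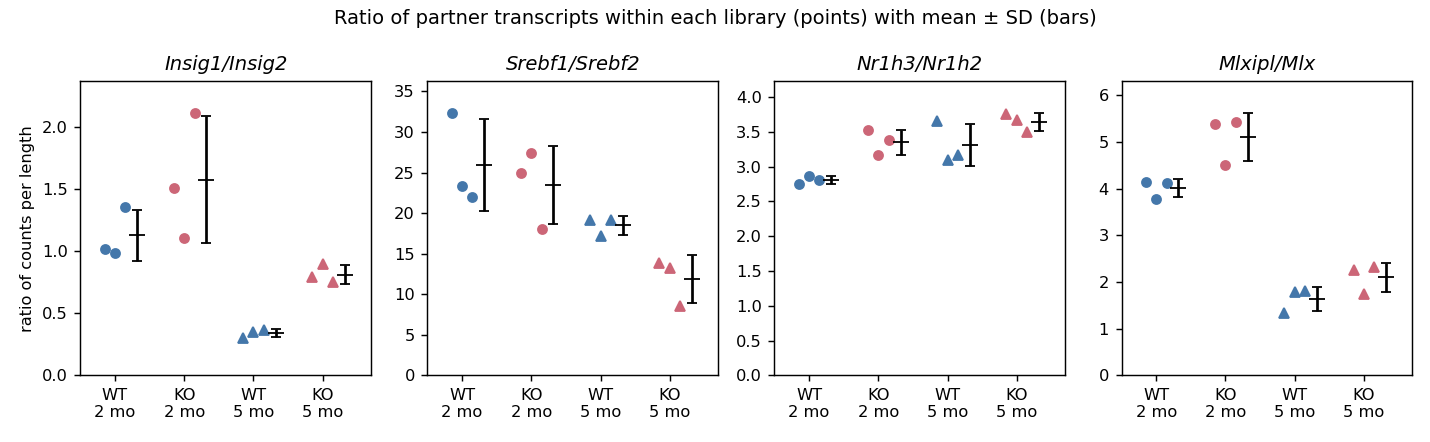
Ratio of counts per length of partner or paralog transcripts within each of the 12 libraries (blue WT, red PPARγ-KO, circles 2 months, triangles 5 months), with the mean ± SD of 3 libraries. The Insig1 to Insig2 ratio lies between 0.302 and 0.366 in WT and between 0.75 and 0.895 in PPARγ-KO at 5 months.

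The known targets of each regulator were then followed as lists, described by counts and medians. Each target was placed in a single list, and its place does not show which regulator acted on it. Over all genes tested the median log2 fold change was between -0.01 and 0.00 in each pairwise comparison. The share of all genes called was 3.56% between genotypes at 2 months and 18.4% at 5 months. Over time it was 46.4% in WT and 44.9% in PPARγ-KO, and for the difference between times it was 1.57%. Of 23 genes of cholesterol synthesis and uptake listed for SREBP-2, 20 were higher in PPARγ-KO at 5 months and the other 3 did not pass, with a median of 0.81. Mvd, which makes isopentenyl diphosphate, had a log2 fold change of 1.64 and Msmo1, a sterol demethylation enzyme, of 0.96 (adjusted p = 4.33e-06 and 4.85e-06). Sqle, squalene epoxidase, had the largest value of the list, at 2.10 (SE 0.503), but did not pass (adjusted p = 0.0552). The count stayed between 18 and 22 over the alternatives.

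At 2 months 1 of these 23 genes was called, Nsdhl, a sterol demethylation enzyme, at 0.55 (adjusted p = 0.0314), with a median of 0.39. With the replicate number as a block 3 were called, and the count ran from 0 to 9 over the alternatives. In WT 14 fell between 2 and 5 months (median -0.67), among them Stard4, a sterol carrier, by 1.16 on the log2 scale and Hsd17b7, a sterol reductase, by 1.23. In PPARγ-KO 5 fell, 3 to 9 over the alternatives, and 2 rose (median -0.09). For the difference of the PPARγ-KO effect between times 1 of the 23 passed, with a positive value (list median 0.50). The count of higher calls for that difference ran from 1 to 7 over 18 alternatives.

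Of 18 lipogenesis genes listed for SREBP-1, 14 were higher in PPARγ-KO at 5 months and the others did not pass (median 0.68). Srebf1 itself had a value of -0.30. Acss2, an acetyl-CoA synthetase, stood at 84.9 ± 3.28 CPM in WT and 212 ± 35.1 in PPARγ-KO (1.33, SE 0.107, adjusted p = 2.15e-05). Gpam, the first enzyme of glycerolipid synthesis, had 1.39 (adjusted p = 8.12e-06) and Fads1, a fatty acid desaturase, 0.61 (adjusted p = 4.94e-05). Acly, which supplies acetyl-CoA, had 1.56, Fasn, fatty acid synthase, 0.87 and Acaca, acetyl-CoA carboxylase, 0.64 (adjusted p = 0.000363, 0.00657 and 0.000628). Scd1, stearoyl-CoA desaturase, did not pass, at 0.22 (SE 0.12, adjusted p = 0.238). At 2 months only Acss2 was called, at 0.61 (adjusted p = 0.0333). No gene of the list was called higher there without WT replicate 1, 2 or 3 or PPARγ-KO replicate 1 or 3 or with library size alone, and 2 were called lower with DESeq2 or without WT replicate 1, where the median was -0.05. In WT 17 of the 18 fell over time (median -1.04), 11 without WT replicate 2 at 5 months, with Scd1 down by 0.71 and Fads2, another desaturase, by 0.81. In PPARγ-KO 4 fell (median -0.37), a count that ran from 0, without replicate 1 of either time, to 9 with DESeq2. Scd2, another stearoyl-CoA desaturase, rose there by 1.76 (adjusted p = 0.00827). The test of the difference between times called 0 of the 18 (median 0.65), and 0 to 7 over 18 alternatives.

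**Figure D4:**
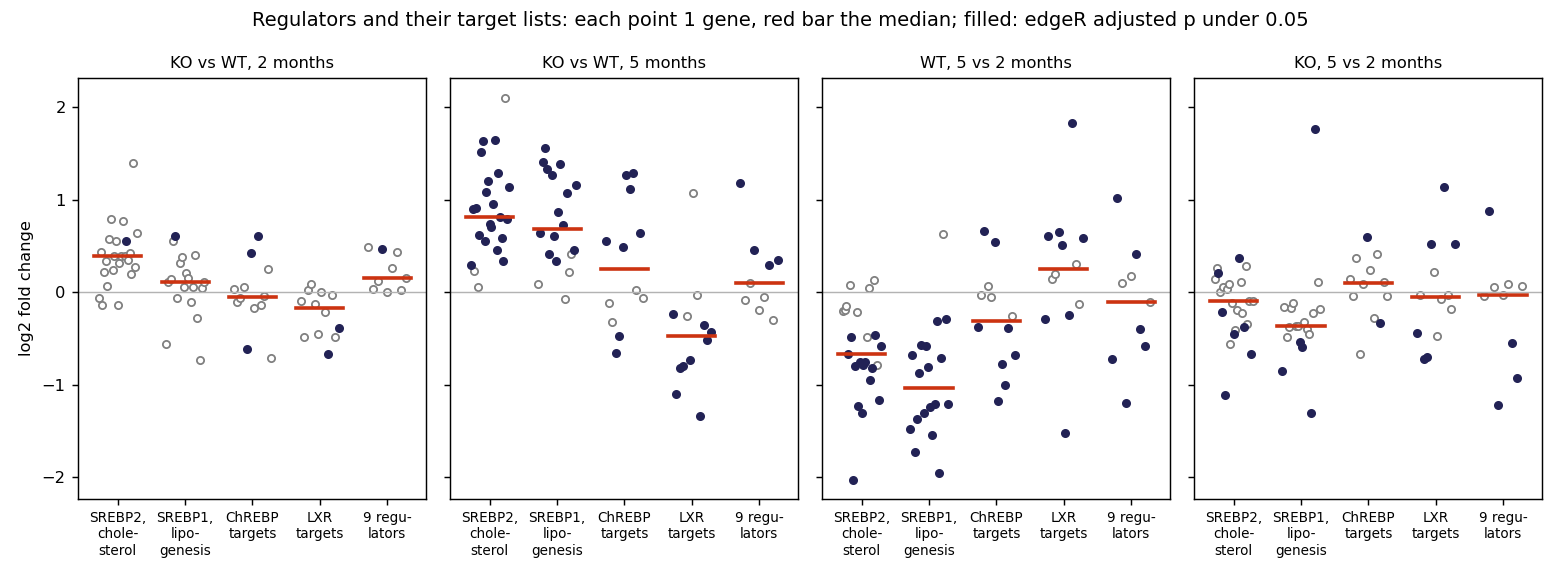
Log2 fold changes of the target lists of the regulators and of the 9 regulators themselves in the 4 pairwise comparisons, with 1 point per gene, filled where the edgeR adjusted p was below 0.05, and a red bar at the median. At 5 months the medians of the SREBP-2 and SREBP-1 lists lie at 0.81 and 0.68 and that of the LXR list at -0.48.

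The 12 ChREBP targets did not move together. At 5 months 6 were higher and 2 lower in PPARγ-KO (median 0.26). Pklr, liver pyruvate kinase, stood at 294 ± 24.3 CPM in WT and 635 ± 114 in PPARγ-KO (2.17-fold, SE 0.126 on the log2 scale, adjusted p = 0.000332), and Rgs16, a G protein regulator, had 1.29 (adjusted p = 6.3e-07). G6pc, glucose-6-phosphatase, was lower, with a log2 fold change of -0.66 (adjusted p = 6.05e-05). Txnip, a classical ChREBP target, had -0.06 (SE 0.0744, adjusted p = 0.661). At 2 months Pklr was higher at 0.61 (SE 0.116, adjusted p = 0.0223), Khk, ketohexokinase, at 0.42 (adjusted p = 0.0479), and Gpd1, glycerol-3-phosphate dehydrogenase, had -0.61 (adjusted p = 0.0178). These 3 calls were all lost without WT replicate 2 or PPARγ-KO replicate 1 or 2. In WT, where Mlxipl itself fell, 6 targets fell and 2 rose over time, and in PPARγ-KO, where Mlxipl fell as far, 1 fell and 1 rose. Khk rose in both (0.54 and 0.60). The test of the difference between times called 0 of the 12 (median 0.25). Over 18 alternatives it called 0 to 3 higher and 0 to 1 lower.

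Of 12 LXR targets, 9 were lower in PPARγ-KO at 5 months and the others did not pass (median -0.48), 5 without WT replicate 2, while Nr1h3 and Nr1h2 had values of -0.05 and -0.19. Abcg1, a cholesterol exporter, stood at 30.5 ± 1.98 CPM in WT and 14.1 ± 0.358 in PPARγ-KO, with a log2 fold change of -1.10 (SE 0.0845, adjusted p = 3.75e-06). Abcg5 and Abcg8, which form the biliary sterol exporter, had -0.82 and -0.79 (adjusted p = 8.52e-06 and 3.12e-05), and Abca1 had -0.23 (adjusted p = 0.0353). Lpcat3, a phospholipid remodelling enzyme, had -0.03 (SE 0.0614, adjusted p = 0.769). At 2 months Lpl, lipoprotein lipase, had -0.66 (adjusted p = 0.0415) and Smpdl3a, a phosphodiesterase, -0.38 (adjusted p = 0.0469). Both calls were lost without WT replicate 2 or 3 or PPARγ-KO replicate 1 or 2. The study also placed Lpl in the PPAR signaling pathway, and the part of each regulator in its change was not tested. Over time 5 rose and 3 fell in WT, although the calls of those that fell were lost without WT replicate 2 or 3 at 5 months. In PPARγ-KO 3 rose and 3 fell over time. Of all genes tested 46.4% were called over time in WT and 44.9% in PPARγ-KO. Of the list only Abcg1 passed the test of the difference between times, at -0.63 (SE 0.149, adjusted p = 0.0453). The count of lower calls for that difference ran from 0 to 3 over 18 alternatives. It was 3 with DESeq2 and without WT replicate 1 at 2 months, and 0 with library size alone and without WT replicate 3 or any PPARγ-KO replicate at 2 months, or WT replicate 2 or 3 or any PPARγ-KO replicate at 5 months.

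Several LXR targets are also expressed by macrophages, and macrophage markers moved with the same groups. Of 12 markers, 10 were lower in PPARγ-KO at 5 months (median -0.98) and 10 rose over time in WT (median 1.25), whereas in PPARγ-KO 5 rose and 3 fell. Their summed level was 516 to 660 CPM in WT and 541 to 639 in PPARγ-KO at 2 months, and 1460 to 1700 in WT and 675 to 934 in PPARγ-KO at 5 months, and none of the 12 was at 0 in any group. The Kupffer cell marker Clec4f had a log2 fold change of -0.79 at 5 months, Cd5l of -1.19 and Adgre1 of -1.20 (adjusted p = 0.00014, 3.25e-06 and 0.0402). The count of lower markers was 5 to 6 without WT replicate 2 or 3 or PPARγ-KO replicate 1 or 3. The summed level of 8 hepatocyte markers was 55300 to 59800 CPM in WT and 73200 to 84700 in PPARγ-KO at 5 months, and 57000 to 71500 and 73800 to 86500 at 2 months. Most of that sum was Alb, the albumin gene, at a mean of 36900 CPM in WT and 57100 in PPARγ-KO at 5 months. Of the 8, 4 had a positive and 4 a negative log2 fold change at 5 months, with 2 called higher and a median of 0.10. Of the other markers, 4 of 9 for stellate cells, 3 of 7 for endothelium and 2 of 3 tested for neutrophils were lower at 5 months, and 1 of 5 for cholangiocytes was higher. Among B cell markers 1 of 3 tested was higher and 1 lower, and 5 T and NK cell markers had a median of -0.87. The part of other cell types in the values of the regulators and targets was not tested.

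Clock genes moved with time on diet as well. Of 17, 12 fell and 4 rose in WT (median -1.02) and 11 fell and 4 rose in PPARγ-KO (median -0.66). Dbp, an output gene of the clock, fell by 2.10 in WT, Ciart by 3.78, and Arntl, a core clock activator, rose by 2.13. At 5 months 8 were higher in PPARγ-KO than in WT (median 0.43), 5 with all 12 libraries in one fit. The summed level was 556 to 566 CPM in WT and 711 to 759 in PPARγ-KO at 5 months, against 1150 to 1280 over both genotypes at 2 months. Of 8 fasting and feeding genes, 1 was higher in PPARγ-KO at 2 months and 3 at 5 months, among them Ppargc1a, a coactivator of gluconeogenic genes, at 1.32 (adjusted p = 4.65e-06). The 2-month call was lost with library size alone and with removal of WT replicate 2, WT replicate 3 or a PPARγ-KO library, whichever it was. The median there ran from -0.21 to 0.46. The hour of collection and the feeding state were not given in the sources used here, and the part of either in the changes of the regulators was not tested.

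Among 13 genes of SREBP processing and turnover, 1 was higher and 2 were lower in PPARγ-KO at 5 months. Mbtps2, the site-2 protease, had 0.39 (adjusted p = 0.0347), while Mbtps1, the site-1 protease, had -0.03 (SE 0.0636). Rnf145, a ligase that acts on SCAP, was lower at both times, at -0.57 at 2 months and -0.64 at 5 months (adjusted p = 0.00619 and 0.000192), and Erlin1, which restrains SREBP, had -0.25 at 5 months (adjusted p = 0.0281). The higher call at 5 months was lost with DESeq2, library size alone, the replicate block, all 12 libraries in one fit and without WT or PPARγ-KO replicate 2 or 3. The count of lower calls fell from 2 to 1 in one fit and without WT replicate 1 or 3 or PPARγ-KO replicate 1 or 2. Over time 3 of the 13 rose and 1 fell in each genotype, against 46.4% of all genes called in WT and 44.9% in PPARγ-KO. Ube2g2, a ubiquitin-conjugating enzyme of INSIG turnover, rose by 1.23 in WT and 1.06 in PPARγ-KO, and Paqr3, a Golgi anchor of SCAP, fell by 1.00 and 0.57.

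Of the MLX and MAX network, 8 of 9 genes were tested in the pairwise comparisons. Mlxip, the paralog of ChREBP, did not pass between genotypes (0.23 and 0.21) and fell over time by 0.61 in WT and 0.64 in PPARγ-KO. Mnt, a transcriptional repressor of the network, was higher in PPARγ-KO at 5 months (0.70, adjusted p = 0.000798), had -0.35 at 2 months (adjusted p = 0.182), and passed the test of the difference between times at 1.04 (adjusted p = 0.00806). Myc was lower at 5 months, with -0.52 (adjusted p = 0.0446), a call lost with DESeq2, the replicate block, all 12 libraries in one fit and without WT replicate 2 or 3 or PPARγ-KO replicate 1 or 3. Of 12 LXR partners and coregulators, 7 fell and 2 rose over time in each genotype (medians -0.47 and -0.32). The obligate partner Rxra had 0.20 and 0.13 between genotypes (adjusted p = 0.285 and 0.314). Of 6 oxysterol enzymes, 5 were tested at 2 months and 4 at 5 months, with medians of 0.17 and 0.07, and 1 passed at each time when the replicate number was a block. Over time 1 rose and 1 fell in WT and 2 fell in PPARγ-KO.

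The genes with the pattern most like each member were found by the root mean square difference of log2 CPM over the 12 libraries, with each gene's mean taken out, among 13170 genes of at least 1 CPM. Insig1 was closest to Acss2 at 0.148, Msmo1 at 0.16 and Rdh11 at 0.162, against a standard deviation of Insig1 itself of 0.526. Mlxipl was closest to 2610005L07Rik at 0.154, Rbm33 at 0.158 and Tmem25 at 0.161, with a standard deviation of 0.691. Insig2 was closest to D8Ertd738e at 0.0812, Gfod2 at 0.0975 and Ndufa3 at 0.104, with a standard deviation of 0.512. Srebf1 was closest to Ror1, Camta2 and Miip at 0.164 to 0.18. Scap was closest to Slco2b1, Zdhhc9 and Slc25a23 at 0.0939 to 0.0983, Srebf2 to Cds2, Gca and Sema4a at 0.0825 to 0.0872, and Nr1h3 to Dhdds, Tars2 and Pnrc2 at 0.0522 to 0.0614. Mlx and Nr1h2 passed in none of the 5 comparisons and were not ranked. All libraries share these values, and the ranking is a description.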

How the data were processed

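Total RNA from 12 mouse livers was sequenced. The submitters' processing notes name HISAT2 and mm10, the study's methods name STAR, and the authors deposited whole-number read counts per gene for each library, with gene positions and lengths; the counting program, annotation release and use of strand are not given in the sources used here. The deposited tables hold raw counts only.

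From these counts each comparison was fitted on its own 6 libraries, and the difference of genotype effects between times on all 12, with edgeR 4.0.16 (TMM scaling, default expression filter, robust quasi-likelihood test, Benjamini-Hochberg adjustment over all genes tested, call at an adjusted p below 0.05) in R 4.3.3. Intervals of 95% use the t quantile of the fit. CPM is on 1 TMM scale over the 12 libraries, and per kilobase values divide by the deposited gene length. Members rest on 520 to 24223 counts, and for those with fewer counts counting noise was part of the error. Replicates are separate libraries. The p-values weigh the difference between groups against the spread between replicates, which is estimated with help from all genes tested. The fit was tested on simulated data. The members and gene lists were chosen with earlier results of these data known. Every member is described, other genes come from the lists, and for each member called at least once the 3 genes most like it are named.

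Each result was recomputed with DESeq2 1.42.0, with its size factors inside edgeR, and scaled to library size only. The filter was dropped or replaced by a minimum of 10 counts per library. A replicate block was added, all 12 libraries were fitted together, and each library was left out in turn. The study's criteria for pathway analysis (p below 0.05, taken here as unadjusted, and 1.3-fold) were also applied. The main fits used no pairing, and the replicate block was an alternative only. From these data alone, same-numbered libraries looked paired at 2 months, where their deviations correlated at 0.221, 0.325 and 0.139 over 5000 genes. Other pairs there reached 0.115, so the margin was small. At 5 months (-0.0743, -0.0621 and -0.187) and over time same-numbered libraries did not look paired. Promoter windows are from RefSeq (GRCm38.p6). A few genes of the lists are not reported here by name.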

Additional observations from a re-analysis of the deposited data

Results flagged for a closer look

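For Nr1h3, the gene of LXRα, every PPARγ-KO library lay above every WT library at 2 months (98.2 to 111 against 82.6 to 92.3 CPM) and every PPARγ-KO library lay below every WT library at 5 months (112 to 114 against 115 to 123 CPM). The opposite order at each time drew attention to it. Groups did not overlap for 24.1% of all genes tested at 2 months and for 34.9% at 5 months. For Nr1h3 the log2 fold change was 0.26 at 2 months (edgeR adjusted p = 0.1) and near 0 at 5 months, at -0.05 (adjusted p = 0.641). The effects differed by a log2 value of -0.32 (SE 0.0945, adjusted p = 0.107 in edgeR), so it did not pass after adjustment, and the adjusted p ran from 0.0627 to 0.222 when 1 library was left out and was 0.0495 with DESeq2. The genes of its partner Rxra and its paralog Nr1h2 had adjusted p of 0.822 and 0.403 for the same difference.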

How the results depend on the processing

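Of 9 members, 1 was called between genotypes at 2 months. The count was 3 with DESeq2, 3 with the replicate block, 3 with the study's criteria, 4 with no filter and 4 with all 12 libraries in 1 fit, and from 0 to 3 with 1 library left out, being 0 without WT replicate 2, WT replicate 3, PPARγ-KO replicate 1 or PPARγ-KO replicate 3. All genes called numbered 519 here, 988 with DESeq2, 817 with the block, 1562 with no filter, 1153 in 1 fit, 1608 by the study's criteria and 117 to 1577 with 1 library left out. At 5 months 4 members were called, 2 by the study's criteria and 1 to 5 with 1 library left out. Srebf1 also passed there with DESeq2, library size alone, no filter, without PPARγ-KO replicate 2 and with the block (-0.32, adjusted p = 0.0464). Same-numbered libraries did not look paired at 5 months. Beside Scap and Insig1 at 2 months and Srebf1 at 5 months the block changed no other member's call. For the difference between times DESeq2 called 2, no filter 1, the study's criteria 1 and leaving out 1 library 0 to 1, with 594, 793, 1563 and 83 to 567 of all genes called against 238. Over time 6 members in WT were called in every alternative, 7 without WT replicate 1 at 2 months, and 4 in PPARγ-KO, 3 with no filter. Signs near 0 turned. With library size alone at 2 months Srebf1 had -0.0474, Insig2 -0.0383 and Nr1h2 -0.0678, where the median of all genes moved to -0.0821. With 1 library left out they ran from -0.0587 to 0.1714, from -0.0447 to 0.1533 and from -0.0624 to 0.0714. Over time in PPARγ-KO Insig1 ran from -0.1733 to 0.0786 and Nr1h2 from -0.0898 to 0.0408, and for the difference between times Mlxipl ran from -0.1276 to 0.0742 and Mlx from -0.0843 to 0.0203. The causes of these changes were not tested. With 3 libraries a group, small differences may go undetected.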
